A study of Mus musculus with 24 samples.

Results

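miR-203 and miR-205 are epithelial miRNAs of layered and glandular tissues, and they are described here across all 24 samples of a mouse model of metastatic mammary carcinoma. They were taken as the rows for mmu-miR-203 and mmu-miR-205 in the deposited value table, 2 of the 566 mouse miRNAs that the nCounter assay measured. In this assay a colored barcode is counted for each captured miRNA, without amplification. The tumors came from JygMC(A)-GFP/Luc cells, a line derived from a spontaneous mammary tumor of a wild mouse and tagged by lentivirus with luciferase and eGFP, which were implanted in the fourth mammary fat pad of young adult female BalbC nude mice. Nude mice lack mature T cells, and the tumor cells and their host differ in genetic background. Areas of the primary tumors were laser captured by histology as carcinoma (n = 5) or as EMT-like, that is, with spindle-shaped cells (n = 7). Lung metastases (n = 4) were captured in the same way, and normal mammary gland (NMG, n = 2) and normal lung parenchyma (n = 2) came from normal BalbC nude mice. Each normal lung sample shares its animal label with the NMG sample of the same replicate number. Monolayer cultures of the tagged line (n = 2) and spheres of the third generation, grown on plates with ultra-low adherence (n = 2), completed the set. The cells were 1 tagged line throughout, so the tumors, metastases and cultures share its origin. Within carcinoma, EMT-like areas and lung metastasis, 1 sample of each kind is labelled with 3 animals at once and was counted as a single sample.

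miRNAs repress messenger RNAs that pair with their seed, the bases 2 to 8 from the 5′ end. miR-203 is known from stratified epithelium, where it limits the proliferative state of basal cells by repressing Trp63, the transcription factor of basal epithelium. It also represses Snai2, a repressor of epithelial genes. miR-205 is enriched in basal and myoepithelial cells and in progenitor cells of the mammary gland, and with the miR-200 family it represses Zeb1 and Zeb2, transcription factors that drive the epithelial-mesenchymal transition (EMT). Both are therefore called epithelial, and both are often lost when epithelial cells acquire mesenchymal traits.

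The mature sequences, from RefSeq on GRCm38.p6, are shown with the seed in capitals because the seed sets the targets and separates the members from every other mature sequence in that table. The probe names carry no arm. By the older naming they stand for the arms now called miR-203-3p and miR-205-5p.
miR-203-3p: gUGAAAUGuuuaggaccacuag
miR-205-5p: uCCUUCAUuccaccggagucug
The seeds shared 0 of 7 positions, and the whole sequences, aligned from the 5′ end, were identical at 3 of 22 positions. Among 1674 different mature mouse sequences in the table, 0 others held the seed of miR-203 and 0 others held that of miR-205. The miR-203 hairpin (Mir203) lies at chr12:112130880-112130955 on the plus strand, between the protein-coding genes Aspg, 3307 bases away, and Kif26a, 13019 bases away. A further annotated miRNA gene, Gm51289, overlaps it. The miR-205 hairpin (Mir205) lies at chr1:193507463-193507530 on the minus strand, inside the long noncoding RNA gene Mir205hg.

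Values are given as normalized values, that is, the deposited value divided by the scaling factor of the lane, with values under 0 set to 0. A value was called above the detection limit when it exceeded a limit set from the 6 negative controls in its lane (their mean plus 2 SD), and these limits lay between 4.0 and 21.4 deposited units. The sum of mouse miRNA values per lane ranged from 24418 in a monolayer to 2334960 in normal lung replicate 2, which stood apart from the other normal lung sample at 589588. Results that rest on that library are given with and without it. Labels call the cultures biological replicates but do not say how they were kept apart, so p-values rest on the spread between these samples.

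The 2 miRNAs had different patterns over these tissues. miR-203 in carcinoma and lung metastasis overlapped the normal gland, and it was low in EMT-like areas. In cultures miR-203 was near or under the detection limit, and its direction against primary tumors changed with the scaling. miR-205 was high in the normal gland and low in every kind of tumor sample, with no difference between carcinoma, EMT-like areas and metastasis that passed the test. In the order of group medians, miR-203 ran from normal lung (427), lung metastasis (291), NMG (238) and carcinoma (214) to monolayer (37.5), EMT-like areas (26.8) and spheres (13.7). All neighbours in that order overlapped except carcinoma and monolayer. For miR-205 the order was NMG (1410), normal lung (478), carcinoma (44.9), EMT-like areas (42.3), monolayer (29.3), lung metastasis (27.1) and spheres (21.6). Only NMG was separated from the group next to it. The normal lung medians are midpoints of unlike values, 110 and 745 for miR-203 and 57.6 and 898 for miR-205. By replicate 1 alone, normal lung would stand between carcinoma and monolayer for miR-203. For miR-205 it would still stand between NMG and carcinoma.

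**Figure D1:**
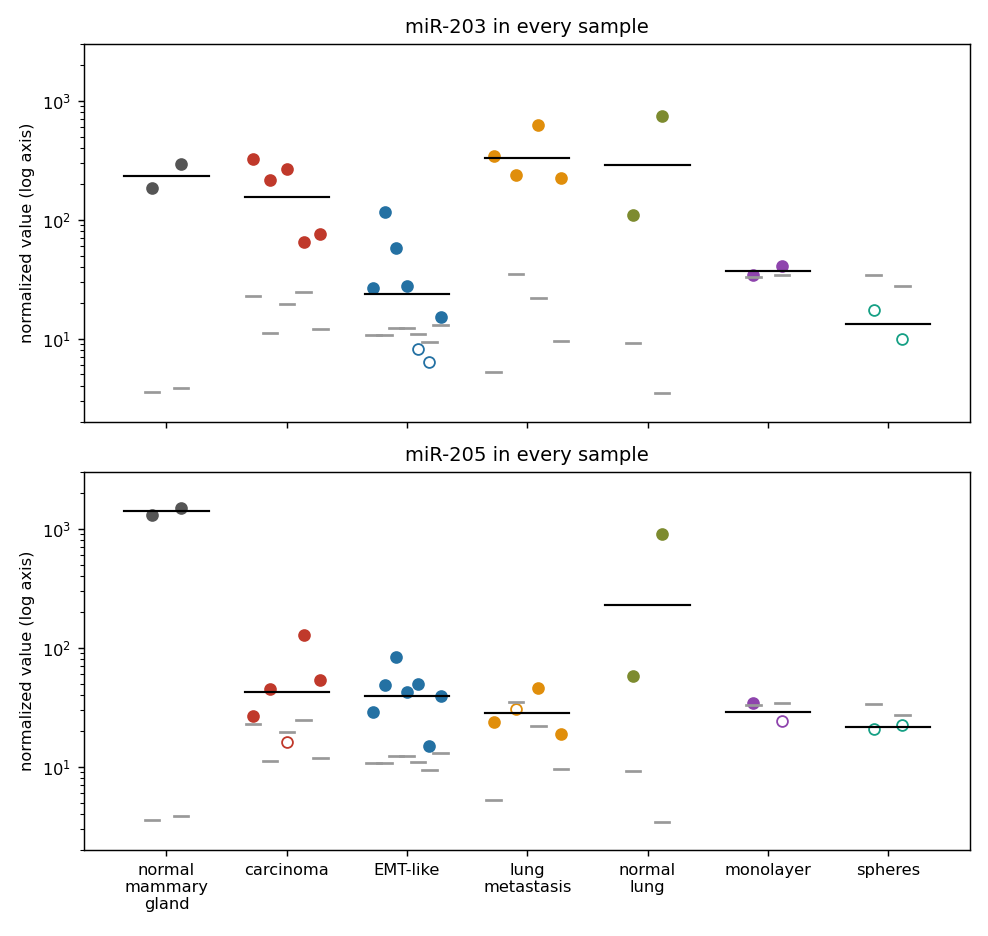
Normalized values (log axis) of miR-203 and miR-205 in each of the 24 samples by group; open circles lie at or under the detection limit of their lane, drawn as a gray tick, and black lines are means of log2(value + 1) turned back to the linear scale. miR-203 is low in EMT-like areas and, with this scaling, in cultures, whereas miR-205 is high in the 2 NMG samples and in normal lung replicate 2.

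Carcinoma and EMT-like areas were compared first, since they are the epithelial and the spindle-like areas of the primary tumors. The 5 and 7 samples were compared as groups, and only 4 animal labels hold both areas. miR-203 read 323, 214, 266, 64.9 and 76.3 in carcinoma replicates 1 to 5, and all 5 values lay above the limit. In EMT-like areas its lowest, median and highest values were 6.33, 26.8 and 117, with 5 of 7 samples above the limit. EMT-like replicate 2 exceeded carcinoma replicates 4 and 5, so the groups overlapped. The difference was 2.65 ± 0.62 on the log2 scale (SE), or 6.29-fold higher in carcinoma, the 5th largest of 583 probes. It did not pass the test across all probes (limma, adjusted p = 0.0617, and 0.0628 with the animal as a block). In this comparison 0.172% of the probes were called in either direction. The adjusted p fell under 0.05 when carcinoma replicate 4 (0.0243) or 5 (0.0464) or EMT-like replicate 2 (0.0106) or 3 (0.0295) was left out. It rose to 0.160 without carcinoma replicate 1 and to 0.183 without carcinoma replicate 3. In limma it was 0.178 with only these groups fitted and 0.216 with scaling by the 4 mRNA control probes. With a term for animals labelled by letters or by numbers it was 0.171.

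miR-205 gave no difference of that size. Its values were 26.6, 44.9, 16.3, 129 and 53.2 in carcinoma replicates 1 to 5 and ranged from 15.0 to 83.8 around a median of 42.3 in EMT-like areas. The miRNA was above the limit in 4 of 5 carcinoma and in 7 of 7 EMT-like samples, so these low values could be measured in nearly all tumor areas. The difference was 0.10 ± 0.54 (log2, SE, limma, adjusted p = 1), and its sign changed with the scaling. Carcinoma replicate 4 held the highest miR-205 and the lowest miR-203 of its group. Carcinoma replicates 1 to 3 come from animals whose labels begin with letters and replicates 4 and 5 from animals with numbers only. miR-203 was higher in each of the 3 lettered samples (214 to 323) than in the 2 numbered ones, and miR-205 was lower in each of the 3 (16.3 to 44.9). Within the lettered animals miR-203 differed between carcinoma and EMT-like areas by 2.21 (exact permutation test, p = 0.1, the smallest p possible) and within the numbered animals by 2.0 (exact permutation test, p = 0.0952, smallest possible 0.0476). The carcinoma to EMT-like difference did not pass a test of unequal size between these series for miR-203 (limma, adjusted p = 1) or for miR-205 (limma, adjusted p = 0.889).

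Lung metastases overlapped carcinoma in miR-203 and stood apart from EMT-like areas. They read 346, 237, 629 and 224 in replicates 1 to 4, each above the highest EMT-like value of 117. The log2 difference to EMT-like areas was 3.72 ± 0.66 (SE), which is 13.2-fold, and miR-203 was called higher (limma, adjusted p = 0.00132, and 0.00136 with the animal as a block). In that comparison 2.74% of the probes were called higher, and miR-203 had the 3rd largest increase of the 583. Normal lung also holds miR-203, so miRNAs of other cells are given beside this call. The erythroid list summed to 348 to 533 in the metastases, above all EMT-like areas at 92.6 to 297, and to 49121 to 55994 in normal lung. Of its 3 members, miR-451 was called higher in metastasis (1.45 ± 0.30, limma, adjusted p = 0.00581). Of the 6 immune miRNAs, miR-150, known from mature lymphocytes, was called higher (2.64 ± 0.38, limma, adjusted p = 0.000147). Of the 3 mesenchymal miRNAs, 2 were called lower, miR-199a-3p (-1.55, limma, adjusted p = 0.00706) and miR-199a-5p (-1.47, limma, adjusted p = 0.00669), and so was miR-206 among the 4 of skeletal muscle (-1.80, limma, adjusted p = 0.0408). miR-206 also read 73.0 to 91.7 in the monolayers and 79.3 to 90.6 in the spheres, so here it is not a reading of muscle alone. The endothelial list summed to 819 to 3114 in the metastases, 1314 to 2626 in EMT-like areas and 67772 to 70141 in normal lung, and neither it nor the smooth muscle list had a call. The part of these cells in the miR-203 difference was not tested. With scaling by the 4 mRNA control probes the adjusted p was 0.0633, at a log2 difference of 3.44. miR-205 in the same lanes read 23.7, 30.5, 46.2 and 18.9, with 3 of 4 above the limit, which lies inside the EMT-like range. Its log2 difference was -0.47 ± 0.58 (limma, adjusted p = 0.779). Against carcinoma, metastasis did not pass the test for miR-203 (1.07 ± 0.71, limma, adjusted p = 0.765) or miR-205 (-0.57 ± 0.62, limma, adjusted p = 0.982), in a comparison with 1.37% of the probes called.

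**Figure D2:**
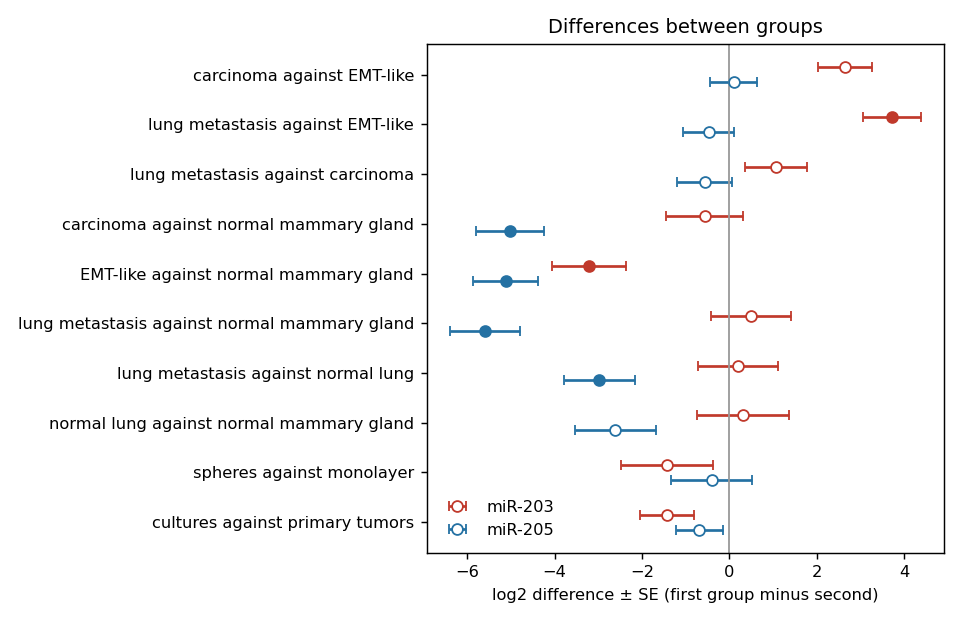
Log2 differences between groups with SE from the fit of all 24 samples, for miR-203 (red) and miR-205 (blue); filled points passed an adjusted p under 0.05. miR-203 was called in lung metastasis against EMT-like areas and in EMT-like areas against NMG, and miR-205 in the 3 comparisons of tumor samples with NMG and in lung metastasis against normal lung.

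Several areas were taken from the same animals, which allows a direct reading within an animal. In the 4 animal labels with both areas, miR-203 was higher in carcinoma than in EMT-like areas in 4 of 4, by 0.17 to 3.54 on the log2 scale. The smallest of these differences was that of carcinoma replicate 4 and EMT-like replicate 3. miR-205 was higher in carcinoma in 2 of the 4 labels, and its differences lay between -0.13 and 0.61. For lung metastasis and EMT-like areas of the same label, miR-203 was higher in metastasis in 4 of 4, by 3.04 to 6.42. The largest difference was that of lung metastasis replicate 3 and EMT-like replicate 6, where the EMT-like value lay under its limit. miR-205 ranged from -1.01 to 1.56 in the same pairs and was higher in 1 of 4. In each comparison 1 of these labels names 3 animals.

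**Figure D3:**
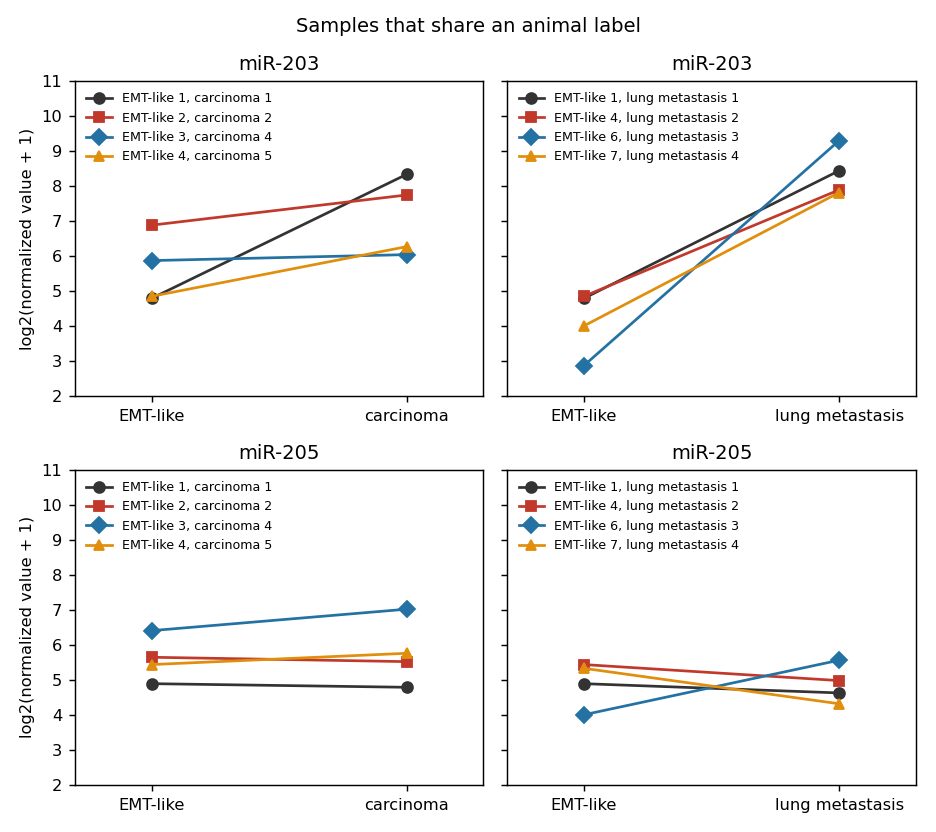
Log2(normalized value + 1) of miR-203 (top) and miR-205 (bottom) in samples that share an animal label, with EMT-like areas joined to carcinoma (left) or lung metastasis (right). Every miR-203 line goes up from EMT-like areas, by 3.04 or more toward metastasis, while miR-205 lines go in both directions.

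NMG held miR-205 at 1316 and 1505, far above the highest tumor value of 129. It was called lower than NMG in carcinoma, by a log2 difference of -5.02 ± 0.78 (32.5-fold, limma, adjusted p = 3.74e-05), where 23.8% of the probes were called lower. In EMT-like areas the log2 difference to NMG was -5.12 ± 0.74 (34.8-fold, limma, adjusted p = 2.03e-05), with 20.4% of the probes called lower. In lung metastasis it was -5.59 ± 0.80 (48.1-fold, limma, adjusted p = 1.53e-05), with 21.4% called lower. These decreases were the 8th, 4th and 8th largest of the 583 probes, while the median over all of them was -0.68, -0.30 and -0.44. The 3 comparisons share the 2 NMG samples. Every alternative that was run kept the direction and the call, with log2 differences between -7.58 and -3.93. As sums over lists, NMG also held more of the miRNAs of other cell types. The summed mesenchymal list was 8645 and 9125 there against at most 2844 in any tumor sample, the smooth muscle list 6039 and 7591 against at most 1689, the endothelial list 10971 and 17649 against at most 3114, the immune list 3063 and 6302 against at most 2461, and the erythroid list 8118 and 8509 against at most 533. Within the immune list 3 of 6 were called lower in carcinoma than in NMG. The other way, miR-155 (1.67) and miR-142-5p (1.21) were called higher. Cultures summed to 857 to 1195 on the immune list and 404 to 1371 on the smooth muscle list. Neither list is therefore a reading of such cells alone here. The part of these cells in the miR-205 difference was not tested. In such tissue samples, fewer cells of a type and less RNA per cell cannot be told apart.

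Of the 3 tumor groups, miR-203 was called against NMG only in EMT-like areas. In that comparison 20.4% of the probes were called lower, and the miR-203 decrease was the 28th largest of the 583. miR-203 read 183 and 292 in NMG, both above all 7 EMT-like values. It was called lower in EMT-like areas by a log2 difference of -3.22 ± 0.85 (9.33-fold, limma, adjusted p = 0.00686). Without NMG replicate 2 the adjusted p was 0.115, and with scaling by the 100 most abundant mouse miRNAs it was 0.0733. Carcinoma overlapped NMG, at a log2 difference of -0.57 ± 0.88 (limma, adjusted p = 0.733). Metastasis overlapped it too, at 0.50 ± 0.91 (limma, adjusted p = 0.822). NMG replicate 1 also held more skeletal muscle miRNA than replicate 2, with a summed value of 1027 against 44.5 over the 4 muscle miRNAs of the marker list. The part of muscle and of the other cell types given above in these results was not tested.

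The level of miR-205 relative to miR-203 within a lane was then compared, because the scaling of a lane nearly cancels in it. Probes differ in efficiency, so only its differences between groups are read. On the log2 scale it read 2.84 and 2.36 in NMG, -3.55, -2.23, -3.95, 0.98 and -0.51 in carcinoma replicates 1 to 5, and -3.81, -2.91, -3.74 and -3.50 in lung metastasis. In EMT-like areas it ranged from -1.24 over a median of 0.58 to 2.47. All 4 metastases lay below all 7 EMT-like areas. The difference of means was -4.19, and among the 9 comparisons of this kind it was the only one to pass (exact two-sided permutation test, p = 0.00303, adjusted p = 0.0273, the smallest p that 4 against 7 samples allow being 0.00303). It combines the differences given above, 3.72 for miR-203 and -0.47 for miR-205, so it largely restates the miR-203 call. miR-203 lay under its limit in EMT-like replicates 5 and 6 (deposited values 9 and 8), and miR-205 in metastasis replicate 2 (16). Carcinoma and EMT-like areas differed by -2.55 (exact permutation test, p = 0.0215, adjusted p = 0.0966) and overlapped. Leaving out carcinoma replicate 4 brought this adjusted p to 0.0273. Without any 1 metastasis the difference to EMT-like areas stayed between -4.38 and -4.08, at an adjusted p of 0.075, which is the smallest that 3 against 7 samples allow over 9 comparisons.

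Against NMG the relative level differed by -4.45 in carcinoma and by -6.09 in metastasis with no overlap, in designs whose smallest p is 0.0476 and 0.0667, and the adjusted p was 0.12 for both (exact permutation tests). EMT-like areas differed from NMG by -1.90 (exact permutation test, p = 0.0833, adjusted p = 0.125) and overlapped it through EMT-like replicate 5, at 2.47. That replicate held miR-203 under its limit, at a deposited value of 9, so its relative level depends on a value that could not be measured well. Metastasis and carcinoma differed by -1.64 (exact permutation test, p = 0.19, adjusted p = 0.245). Metastasis differed from normal lung by -3.17 with no overlap (exact permutation test, adjusted p = 0.12), at the smallest p of this design, and by -2.57 without normal lung replicate 2. Normal lung and NMG, with 2 samples each, cannot give a p below 0.333 in this test, which leaves out that they share animals. They differed by -2.92, or by -3.52 without normal lung replicate 2, and by -3.75 and -2.09 within the 2 animals. Cultures and primary tumors differed by 0.52 and overlapped (exact permutation test, adjusted p = 0.635).

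**Figure D4:**
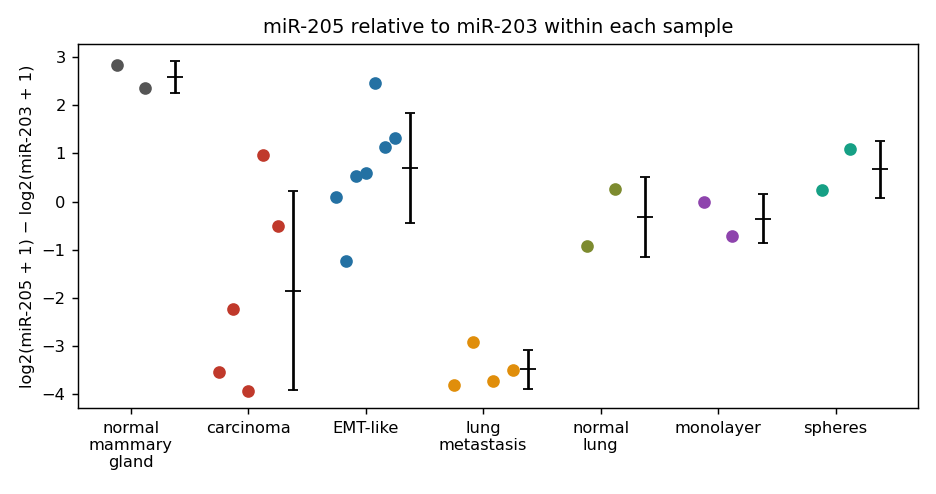
Log2(miR-205 + 1) minus log2(miR-203 + 1) in each sample by group, with the mean and SD to the right of the points. The 4 metastases lie between -3.81 and -2.91, below all EMT-like areas, and the 2 NMG samples lie at 2.36 and 2.84.

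Normal lung was measured as the tissue around the metastases. miR-205 read 57.6 in normal lung replicate 1 and 898 in replicate 2, and miR-203 read 110 and 745. Replicate 2 was the higher in both miRNAs, by 15.6-fold and 6.79-fold after scaling. It also held more of the skeletal muscle list (summed value 1724 against 585). Its miR-206, a miRNA of that list that the cultures held too, was 161 against 8.05. The summed epithelial list was 4793 against 5314, and the smooth muscle list 9932 against 13953. The other lists were higher in replicate 2, in smaller proportion than skeletal muscle. Within the epithelial list single members differed between the lung samples, with miR-200c at 578 and 1057 and miR-375 at 85.9 and 157. miR-200a differed little, at 1090 and 1118. The part of any other tissue in replicate 2 was not tested.

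Lung metastasis was called lower than normal lung in miR-205 (-2.97 ± 0.80, limma, adjusted p = 0.00497), in a comparison where 42.2% of the probes were called lower and the median over all probes was -0.90. Without normal lung replicate 2 the log2 difference was -1.0 and the adjusted p 0.467. The call was also lost with both lung samples under scaling by the 100 most abundant miRNAs (-1.21, adjusted p = 0.275) or by the miRNA sum (-1.51, adjusted p = 0.152), and when only the groups compared were fitted (adjusted p = 0.0936). miR-203 in metastasis was within the spread of normal lung (0.20 ± 0.91, limma, adjusted p = 0.893), and its sign changed with the scaling. Without normal lung replicate 2 this difference was 1.57 (limma, adjusted p = 0.403). Normal lung against NMG gave -2.62 ± 0.93 for miR-205 (limma, adjusted p = 0.0637), with 11.7% of the probes called. This log2 difference was -4.59 and the adjusted p 0.00140 without normal lung replicate 2. For miR-203 it was 0.31 ± 1.06 (limma, adjusted p = 0.906), and -1.07 without that library. The normal lung and NMG samples share animals, which this fit did not take into account. Within the animals of replicates 1 and 2 the log2 differences were -4.49 and -0.74 for miR-205, and -0.74 and 1.35 for miR-203.

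In culture both miRNAs were at the edge of detection. The deposited values of miR-203 were 22 and 20 in the monolayers, just above limits of 21.4 and 16.9, and 10 and 4 in the spheres, under theirs. miR-205 was deposited at 22 and 12 in the monolayers, of which 1 was above its limit, and at 12 and 9 in the spheres, under it. After scaling, the spheres had limits of 34.0 and 27.5, so a culture level as low as that of several EMT-like areas for miR-203 would not have been detectable. Taking the spheres at their limits, NMG held at least 44.6-fold more miR-205, a bound that lay between 4.49 and 229 under the other scalings. For miR-203 in NMG, and for both miRNAs in carcinoma, at least 1 scaling gave no bound above 1. Spheres and monolayer did not pass the test for miR-203 (limma, adjusted p = 0.710) or miR-205 (limma, adjusted p = 1), with 4.63% of the probes called. Cultures against primary tumors did not pass either for miR-203 (-1.42 ± 0.61, limma, adjusted p = 0.0875) or miR-205 (-0.69 ± 0.54, limma, adjusted p = 0.407), with 30.4% of the probes called, and both signs changed with the scaling.

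The 9 other miRNAs of the epithelial list place the members among their kind. The list holds the miR-200 family (miR-200a, miR-200b, miR-200c, miR-141 and miR-429), the cluster of miR-183, miR-96 and miR-182, and miR-375, which is known from secretory epithelium. In lung metastasis against EMT-like areas 5 of the 9 were called higher and 0 lower, all 5 of the miR-200 family, where 2.74% of all probes were called higher, with a list median of 2.73 beside -0.06 over all probes. In carcinoma against EMT-like areas limma called 0 of the 9, with 5 higher and 0 lower at an unadjusted p under 0.05 (3.6% of all probes were higher at that p), at a list median of 2.03 beside -0.16. In EMT-like areas against NMG 3 were called lower (miR-141, miR-200a and miR-375) and 1 higher (miR-183), beside 20.4% and 4.46% of all probes. In carcinoma against NMG 1 was called lower (miR-375) and 1 higher (miR-183), beside 23.8% and 5.49%. miR-375 lay under the limit in both NMG samples, at 0 and 3.71, and read 0 in every carcinoma and EMT-like sample. Its calls against NMG therefore rest on a value that was not detected. Cultures against primary tumors had 7 of 9 called lower, beside 21.8% of all probes, whereas miR-203 and miR-205 were not called there. In carcinoma the summed list lay between 904 and 5569, and EMT-like areas gave 167 to 2027. EMT-like replicates 2 (2027) and 3 (1453) held more than carcinoma replicate 4 (904), so the labels of these areas did not separate the epithelial miRNAs fully.

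miR-203 varied with most of this list in the tumor samples, with r from 0.86 to 0.95 for the miR-200 family. Over all 24 samples the miRNAs most like miR-203, among 236 mouse miRNAs above the limit in at least 8 lanes, were miR-200b (Pearson r = 0.90), miR-200a (0.87) and miR-429 (0.87), given as a description because the points share animals, lanes and scaling. Over the 16 tumor samples they were miR-200b (0.95), miR-200c (0.94) and miR-19a (0.93), a member of the miR-17-92 cluster that promotes proliferation. After the mean of each tumor group was removed, r was 0.92, 0.89 and 0.84. miR-200b itself lay between 246 and 1647 in carcinoma and between 678 and 1221 in metastasis, and EMT-like areas gave 16.6 to 494.

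For miR-205 the nearest over the 24 samples were miR-136 (0.84), miR-378 (0.81) and miR-322 (0.79). These share with it a high value in NMG: miR-136 read 268 and 269 there and between 17.2 and 48.1 in the 16 tumor samples. Over the tumor samples alone no miRNA came as close, with miR-574-3p (0.61), miR-654-3p (0.60) and miR-223 (0.52) at the top. The correlation of miR-205 with miR-203 was 0.39 over all samples and -0.10 over the tumor samples, and that with miR-200b was -0.09. In the tumor lanes miR-205 was deposited at 13 to 103, against limits of up to 20.6, so its range above the limit was small.

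**Figure D5:**
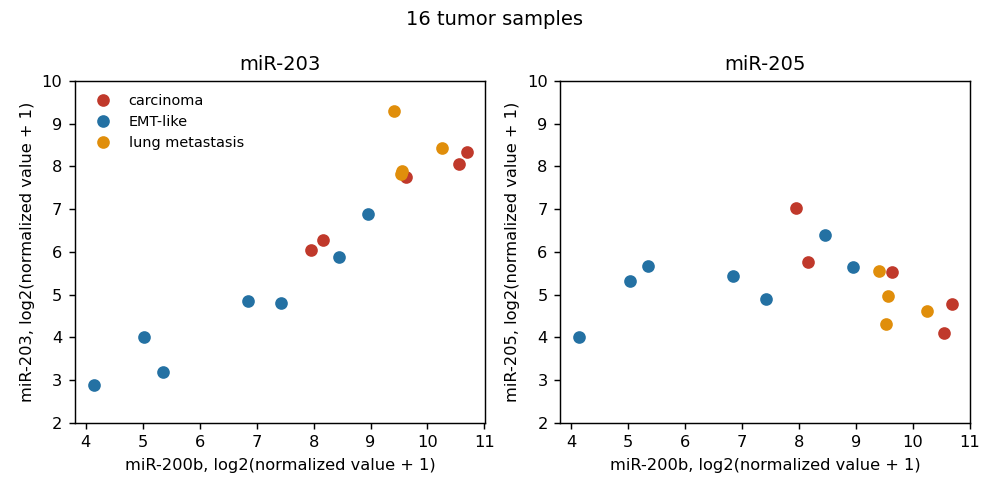
miR-203 (left) and miR-205 (right) against miR-200b, each as log2(normalized value + 1), in the 16 tumor samples by group. miR-203 follows miR-200b (r = 0.95) through all 3 groups, and for miR-205 r is -0.09.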

How the data were processed

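The deposited values are a score made by the authors: nCounter barcode counts from which the average negative control (6 probes per lane) had been subtracted, as whole numbers down to -20, without scaling between lanes. Of the miRNA values, 35.2% lay below 0. Because these are not counts, values were floored at 0, scaled with TMM factors (trims of 30% and 5%, reference lane carcinoma replicate 2), and log2(value + 1) was tested with limma 3.58.1 in R 4.3.3, with a mean-variance trend, for 7 groups in 1 fit. Benjamini-Hochberg adjustment covered the 583 probes above 0 in any sample, and an adjusted p under 0.05 was called. Fold changes are on the scale of value + 1 and understate those of low values. The relative level of the 2 miRNAs was compared by exact two-sided permutation tests, adjusted over 9 comparisons, in Python 3.11.15 with scipy 1.17.1. The procedure was tested on simulated data. Groups came from the labels.

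The miRNAs and lists were chosen with earlier results of these data known. The text names the members, the 3 mouse miRNAs most correlated with each over all samples and over tumor samples, and the epithelial list. Samples sharing an animal were checked by the correlation of their deviations from group means over 159 probes, which had a median of 0.19 (10 pairs, -0.31 to 0.49) against 0.00 for samples of other animals and groups. Lists of miRNAs of other cell types (3 mesenchymal, 4 skeletal muscle, 3 erythroid, 6 immune, 2 endothelial and 2 smooth muscle) were summed per lane and given beside results.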

Additional observations from a re-analysis of the deposited data

How the results depend on the processing

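Of 461 recomputed values for 29 results, 413 kept their direction and their side of the threshold. The lower miR-205 in carcinoma, EMT-like areas and lung metastasis than in NMG did so under every setting run. Values below are adjusted p. miR-203 in EMT-like areas against NMG gave 0.0733 with scaling by the 100 most abundant miRNAs. In carcinoma against EMT-like areas it gave 0.0320 when 2 or more samples had to reach 20, but 0.216 with scaling by the 4 mRNA controls. In lung metastasis against EMT-like areas it gave 0.0633 with scaling by the 4 mRNA controls. In metastasis against normal lung, miR-205 gave 0.0936 with only the groups compared, 0.275 with the 100 most abundant and 0.152 with the miRNA sum. In normal lung against NMG it gave 0.0365 with a pseudocount of 10, 0.0319 with the 100 most abundant and 0.0237 with the sum. In cultures against primary tumors, the higher background (mean plus 2 SD subtracted) gave 0.00234 for miR-203 and 0.00448 for miR-205, and no scaling gave 0.0133 for miR-203. The direction turned there with the 100 most abundant (0.256 for miR-203, 0.0193 for miR-205) and, for miR-205, with the sum (0.739). The cause was not tested.

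Without leaving out samples, the other turned directions had no call. They were, for miR-203, carcinoma against NMG (0.930, 100 most abundant), metastasis against NMG (0.8995 higher background, 0.278 no scaling, 0.729 mRNA controls), metastasis against normal lung (0.873, 0.103 and 0.110 in the same order) and normal lung against NMG (0.925 with the 100 most abundant, 0.843 with the sum). For miR-205 they were carcinoma against EMT-like areas (0.998 higher background, 0.919 no scaling, 1 with the 100 most abundant and 1 with the sum) and spheres against monolayer (0.993 higher background, 1 mRNA controls).

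Leaving out 1 sample gave, for miR-203, 0.00134 to 0.115 in EMT-like areas against NMG, 0.0106 to 0.183 in carcinoma against EMT-like areas, 0.403 to 0.956 in metastasis against normal lung and 0.443 to 1 in normal lung against NMG. For miR-205 it gave 0.886 to 1 in carcinoma against EMT-like areas, 6.66e-05 to 0.467 in metastasis against normal lung and 0.00140 to 0.683 in normal lung against NMG, the ends of the last 2 ranges being those without normal lung replicate 1 or 2. Directions turned, with no call, for miR-203 in metastasis against normal lung without metastasis 3 (log2 difference -0.12) or normal lung 1 (-1.18), for miR-203 in normal lung against NMG without NMG 1 (-0.03) or normal lung 2 (-1.07), and for miR-205 in carcinoma against EMT-like areas without EMT-like 6 (-0.12) or carcinoma 4 (-0.30). The relative level gave 0.0273 to 0.15 in carcinoma and 0.0429 to 0.075 in metastasis, both against EMT-like areas. Where 1 sample of a group was left, its spread was taken from the rest of the groups.

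With the animal or culture number as a block (correlation -0.0051) no limma call of miR-203 or miR-205 changed, and miR-203 in carcinoma against EMT-like areas gave 0.0628. With so small a correlation, taken over all probes, the block could change these values little. The relative level was tested without a block. Within the 4 animal labels shared by metastasis and EMT-like areas it was lower in metastasis in each, by log2 differences of -4.87 to -3.50. The bounds under other scalings were added after seeing the data. Calls over all probes ranged, in the order of the comparisons plotted, from 0 to 19 (1 as reported), 7 to 68 (45), 1 to 19 (8), 102 to 326 (171), 98 to 339 (145), 101 to 325 (149), 151 to 389 (287), 30 to 160 (68), 0 to 49 (27) and 132 to 281 (177).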
